A study of Mus musculus with 4 samples.

Results

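The miR-30 family was examined in small RNA libraries of cultured cortical neurons from WT mice and from mice of a transgenic Alzheimer's disease model, called TgAD. Its members were taken by name from the count tables: the 5p guides mmu-miR-30a-5p, mmu-miR-30b-5p, mmu-miR-30c-5p, mmu-miR-30d-5p and mmu-miR-30e-5p and the 3p arms mmu-miR-30a-3p, mmu-miR-30c-1-3p, mmu-miR-30c-2-3p, mmu-miR-30d-3p and mmu-miR-30e-3p (written below without mmu, for mouse), 10 of the 1966 listed miRNA. A further arm with a row of its own, miR-30b-3p, was kept beside them as the partner of miR-30b-5p. Of the 10 members, 9 passed the filter on low counts and were tested. The remaining member, miR-30e-3p, had 0 reads in all 4 libraries.

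Neurons were prepared from the embryonic cortex at E16.5 per the labels and kept for 5 days in serum-free culture, with 2 libraries per genotype. TgAD embryos carry 2 transgenes on the B6C3 background. One is APP, part mouse and part human in sequence, with the Swedish mutations, and its expression comes from the prion promoter of the mouse, which is active chiefly in brain neurons. WT cultures carry neither transgene. Each embryo was cultured and genotyped separately. The 4 libraries held 2070204 to 4811010 reads counted on miRNA. The share of a single miRNA, miR-99a-5p, was 15.8% and 16.7% in WT and 27.0% and 31.8% in TgAD.

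The columns of a second deposited table, of normalized values, did not match their names. For all of its 674 miRNA, the reads recovered from the column WT_1 were those of the TgAD replicate 1 count table, those from WT_2 were those of WT replicate 1, and those from TR_1 were those of TgAD replicate 2. The column TR_2 matched none of the 4 count tables, with at most 30 identical values of 674. The results below follow the count tables and their sample labels. Which of the 2 sets of names is right was not tested.

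A miRNA gene is transcribed as a longer RNA, from which Drosha cuts a hairpin and Dicer then a short duplex. One strand of the duplex, the guide, is loaded into an Argonaute protein and pairs with target mRNA through its seed, bases 2 to 8, while the other strand, the passenger, is mostly degraded. In the miR-30 hairpins the 5p arm is the usual guide. The family is abundant in brain, and miR-30a is known to repress Becn1, an autophagy gene, and Bdnf, the gene of a neuronal growth factor. A read covers a whole mature miRNA, so levels are given without division by length.

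Mature sequences are shown because counting required an exact match, so that the differences between members decide which row a read enters. They are from RefSeq on GRCm38.p6, where 7 of the 10 members were matched, and capitals mark the seed. The guides with a sequence, and miR-384-5p from the X chromosome, which has the same seed, read:
miR-30a-5p: uGUAAACAuccucgacuggaag
miR-30e-5p: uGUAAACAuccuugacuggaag
miR-30c-5p: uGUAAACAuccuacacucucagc
miR-384-5p: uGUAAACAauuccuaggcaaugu

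The first pair differed by a single substitution, C13U from miR-30a-5p to miR-30e-5p, counted from 1 at the 5′ end. The 3p arms fell into 2 seed groups, with miR-30a-3p and miR-30e-3p in the first and both miR-30c 3p arms in the second:
miR-30a-3p: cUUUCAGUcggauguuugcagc
miR-30e-3p: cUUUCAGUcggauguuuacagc
miR-30c-1-3p: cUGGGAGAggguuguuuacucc
miR-30c-2-3p: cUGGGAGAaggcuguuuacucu

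From miR-30a-3p to miR-30e-3p the only change was G18A, and from miR-30c-1-3p to miR-30c-2-3p the changes were G9A, U12C and C22U. The second group shares its seed with miR-6958-5p, which had 1, 0, 1 and 0 reads.

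The 6 hairpins lie in 3 pairs. In GENCODE M21, on GRCm38, Mir30a (chr1:23272269-23272339) overlaps no annotated gene, and Mir30c-2 (chr1:23291701-23291784) lies 19361 bp from it within an exon of the lincRNA Gm27028, both on the plus strand. Mir30c-1 (chr4:120769534-120769622) and Mir30e (chr4:120772606-120772697) lie 2983 bp apart on the minus strand, in introns of all 6 spanning transcripts of Nfyc, which encodes a subunit of the CCAAT-binding factor NF-Y. Mir30b (chr15:68337415-68337510) and Mir30d (chr15:68341208-68341289) lie 3697 bp apart on the minus strand. They overlap exons of noncoding transcripts, Gm26621 for Mir30b and Gm20732 and Gm37296 for Mir30d.

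The tested guides split in TgAD neurons. miR-30b-5p fell by 60.4%, miR-30a-5p fell by 40.5% and miR-30e-5p fell by 35.5%, while miR-30d-5p, from the same cluster as miR-30b, did not fall. miR-30c-5p had too few counted reads to compare closely, fewer than either miR-30c 3p arm. Among the 3p arms, miR-30d-3p was lower. At the study's cutoffs, a log2 fold change past 0.6 either way with an adjusted p under 0.1 (quasi-likelihood test of edgeR, Benjamini-Hochberg adjustment over 496 miRNA), 4 of 9 tested members passed and all 4 were lower. Over all tested miRNA 33.1% passed and 17.3% passed as lower, 86 lower and 78 higher. When the libraries were scaled by their totals instead of by TMM, the normalization used throughout, 122 were lower and 43 higher, the median log2 fold change of all tested miRNA was -0.23, and miR-30c-2-3p passed besides the 4 members, at -0.69. Fewer members passed whenever a library was left out, which leaves 1 library in a genotype. Fewer of all tested miRNA passed there as well, so this drop was not particular to the members. The log2 fold changes of the 4 members stayed below 0 there. They ran from -0.82 to -0.69 for miR-30a-5p and from -1.73 to -1.06 for miR-30b-5p. For miR-30e-5p they ran from -0.77 to -0.56 and for miR-30d-3p from -1.05 to -0.69. In bulk cultures, fewer cells of a type that expresses a miRNA and less of it per cell cannot be told apart.

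At the stringent cutoffs, a log2 fold change over 1 and an adjusted p under 0.01, the main edgeR fit passed 0 members, beside 4.44% of all tested miRNA. An unadjusted p under 0.05 was reached by 4 of 9 tested members, near the 36.9% of all tested miRNA. DESeq2 passed 1 member, miR-30b-5p, at the stringent cutoffs, beside 13.7% of the 495 miRNA to which it gave an adjusted p. The edgeR count of members at these cutoffs also depended on the setting. With the libraries scaled by their totals it was 2, where 86 of all 496 tested miRNA passed. The normalized levels of the genotypes did not overlap for 8 of the 9 tested members, 7 lower and 1 higher in TgAD, against 63.1% of all tested miRNA. The median log2 fold change was -0.42 over the tested members and 0.032 over all tested miRNA. Of the tested 5p arms 3 of 5 passed the first cutoffs, and of the 3p arms 1 of 4, beside 33.1% of all tested miRNA. When the libraries were corrected for GC content (explained below), miR-30e-5p did not pass and miR-30c-2-3p did, so this split by arm depends on the setting.

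**Figure D1:**
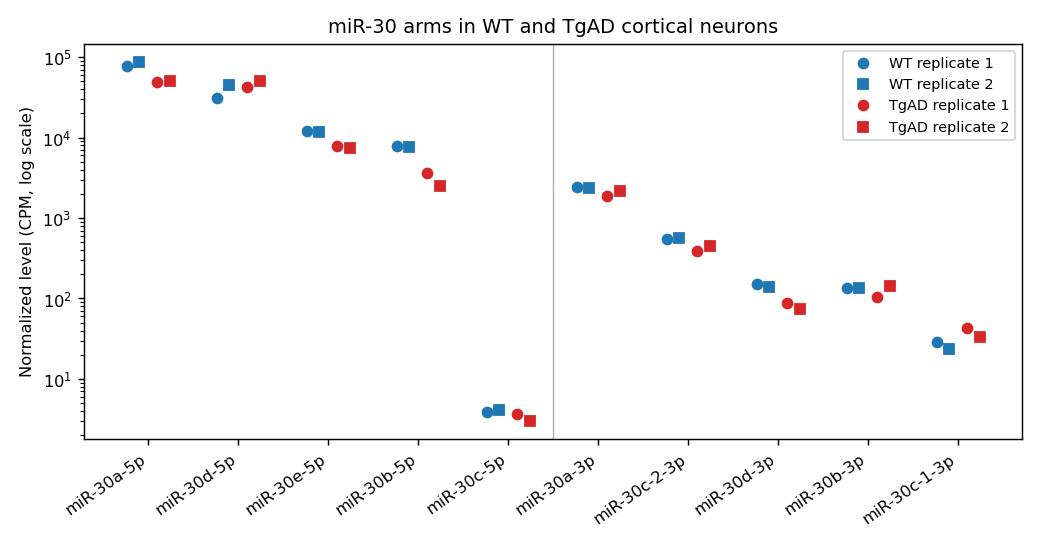
Normalized level of each miR-30 arm in each library, in normalized reads per 1000000 (CPM) on a log scale, with 5p guides left of the line and 3p arms right of it. Each point is 1 library. The TgAD points of miR-30d-5p and miR-30b-3p overlap the WT points, and those of miR-30c-1-3p lie above both. For every other arm drawn the TgAD points lie below both WT points, and miR-30e-3p, at 0 reads, is not drawn.

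miR-30a-5p was the most abundant member in WT. It was counted 184916 and 253847 times in the WT replicates and 132937 and 202212 times in the TgAD replicates, which ranked it 3 and 3 among all miRNA in WT and 5 and 8 in TgAD. After normalization by TMM, which scales the libraries so that most miRNA match, these were 78703 and 87184 reads per 1000000 (CPM) in WT and 48449 and 50283 in TgAD. Both TgAD libraries lay below both WT libraries, and the libraries of a genotype lay close together. The means were 82943 ± 5996 CPM in WT and 49366 ± 1297 in TgAD (SD, n = 2), a log2 fold change of -0.75 (SE 0.214, edgeR quasi-likelihood adjusted p = 0.0475). The call was lost without TgAD replicate 1 (adjusted p = 0.108) and without TgAD replicate 2 (adjusted p = 0.155), although the log2 fold change stayed at -0.82 and -0.75 there.

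miR-30b-5p changed most among the tested members. It was counted 18307 and 22230 times in the WT replicates and 9963 and 9993 times in the TgAD replicates, although TgAD replicate 2 was the deepest library. The normalized levels were 7792 and 7635 CPM in WT and 3631 and 2485 in TgAD. The WT libraries were nearly equal and the TgAD libraries were lower and further apart. The log2 fold change was -1.33 (SE 0.243, edgeR adjusted p = 0.0164), between -1.73 and -1.06 when each library was left out, and passed the cutoffs each time. Its rank was 20 and 22 in WT and 31 and 46 in TgAD.

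miR-30e-5p, which differs from miR-30a-5p by the C13U change given above, was counted 28588 and 34002 times in the WT replicates and 21698 and 30034 times in the TgAD replicates. These were 12168 and 11678 CPM in WT and 7908 and 7468 in TgAD. The levels did not overlap, and the log2 fold change of -0.63 (SE 0.192, edgeR adjusted p = 0.0554) lay just past the 0.6 cutoff. When the libraries were corrected for GC content (explained below), it was -0.20 (edgeR adjusted p = 0.574) and the call was lost. The call was also lost without WT replicate 1 (adjusted p = 0.168), without WT replicate 2 (adjusted p = 0.1002) and without TgAD replicate 2 (adjusted p = 0.178).

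miR-30d-5p was the member whose levels overlapped between the genotypes. It was counted 72689 and 130084 times in the WT replicates and 118056 and 205880 times in the TgAD replicates, or 30938 and 44677 CPM in WT and 43025 and 51195 in TgAD. The WT libraries differed from each other more than the TgAD libraries did, and TgAD replicate 1 lay between them. The log2 fold change was 0.32 (SE 0.262, edgeR adjusted p = 0.414). It was 0.091 without WT replicate 1 and 0.59 without WT replicate 2.

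miR-30c-5p, the guide of both miR-30c hairpins, was counted only 9 and 12 times in the WT replicates and 10 and 12 times in the TgAD replicates. The normalized levels were 3.83 and 4.12 CPM in WT and 3.64 and 2.98 in TgAD, close to the 0.746 to 1.28 CPM that a floor of 3 reads gives in these libraries. The log2 fold change was -0.28 (SE 0.446, edgeR adjusted p = 0.692), and a difference of the size seen in miR-30e-5p was not detectable at this depth. In every library miR-30c-5p had fewer reads than either miR-30c 3p arm, the reverse of the usual order of guide and passenger. The ratio of miR-30c-5p to miR-30c-2-3p was 0.00705 and 0.00722 in WT and 0.00939 and 0.00671 in TgAD. The 2 miR-30c hairpins share a stretch of 28 nucleotides that holds the whole guide, so its sequence lies at chr1:23291714-23291736 and at chr4:120769584-120769606. Of 53 listed miRNA names with 2 or more annotated loci 30 (56.6%) were at 0 in all libraries, against 594 of 1563 (38.0%) with 1 locus and no annotated miRNA on the other strand. The 53 include names that also overlap a miRNA of the other strand, such as miR-9-5p and miR-9-3p, so these shares differ in more than loci. The 53 names had a median of 0 reads, but miR-128-3p, with 2 loci and no such overlap, had 43009 to 240174 reads per library. How reads with several placements were counted is not given in the sources used here, and the part of this in the low count was not tested.

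miR-30d-3p, the passenger of miR-30d-5p, was counted 352 and 405 times in the WT replicates and 241 and 301 times in the TgAD replicates. At 150 and 139 CPM in WT and 87.8 and 74.8 in TgAD, the levels did not overlap and fell by 0.83 on the log2 scale (SE 0.217, edgeR adjusted p = 0.0377). The call was lost without WT replicate 1 (adjusted p = 0.194), without WT replicate 2 (adjusted p = 0.106) and without TgAD replicate 2 (adjusted p = 0.109). Guide and passenger of this hairpin thus differed in their calls, and their ratio is given below.

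The other 3p arms did not pass the cutoffs. miR-30a-3p was counted 5710 and 6969 times in the WT replicates and 5207 and 8830 times in the TgAD replicates, with a log2 fold change of -0.24 (SE 0.188, edgeR adjusted p = 0.404). miR-30c-2-3p was counted 1277 and 1662 times in the WT replicates and 1065 and 1789 times in the TgAD replicates, with a log2 fold change of -0.42 (SE 0.188, edgeR adjusted p = 0.161). miR-30c-1-3p, from the second miR-30c locus, was counted 67 and 69 times in the WT replicates and 119 and 132 times in the TgAD replicates, with a log2 fold change of 0.54 (SE 0.280, edgeR adjusted p = 0.217). It was the member whose TgAD levels lay above both WT levels, 43.4 and 32.8 CPM against 28.5 and 23.7. miR-30b-3p was counted 317 and 390 times in the WT replicates and 288 and 571 times in the TgAD replicates, its levels overlapped, and its log2 fold change was -0.12 (SE 0.234, edgeR adjusted p = 0.742).

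miR-30e-3p had 0 reads in every library, while its guide had at least 21698. Set against a floor of 3 reads per library, the guide count was at least 7233-fold that floor in each of the 4 libraries. This bounds the counted reads only, not the level of the passenger in the cells. In the annotation, miR-30e-3p overlaps miR-30f, encoded on the other strand of the same span, by 19 nucleotides. Of 55 listed miRNA with a single locus and such an overlap of at least 15 nucleotides, 49 (89.1%) were at 0 in all libraries. With a single locus and no such overlap of any length, 594 of 1563 (38.0%) were at 0. miR-30f itself was counted 2 and 5 times in the WT replicates and 8 and 8 times in the TgAD replicates and was not tested. Whether the counting used strand is not given in the sources used here, and the part of the overlap in the 0 was not tested.

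The guide with the shared seed outside the family, miR-384-5p, was counted 1055 and 1277 times in the WT replicates and 604 and 963 times in the TgAD replicates. Its levels, 449 and 439 CPM in WT and 220 and 239 in TgAD, did not overlap, and its log2 fold change was -0.95 (SE 0.186, edgeR adjusted p = 0.0192). After the correction for GC content the log2 fold change was -0.21 (edgeR adjusted p = 0.538) and the call was lost. miR-384-5p was less abundant than each of the guides miR-30a-5p, miR-30b-5p, miR-30d-5p and miR-30e-5p in every library.

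**Figure D2:**
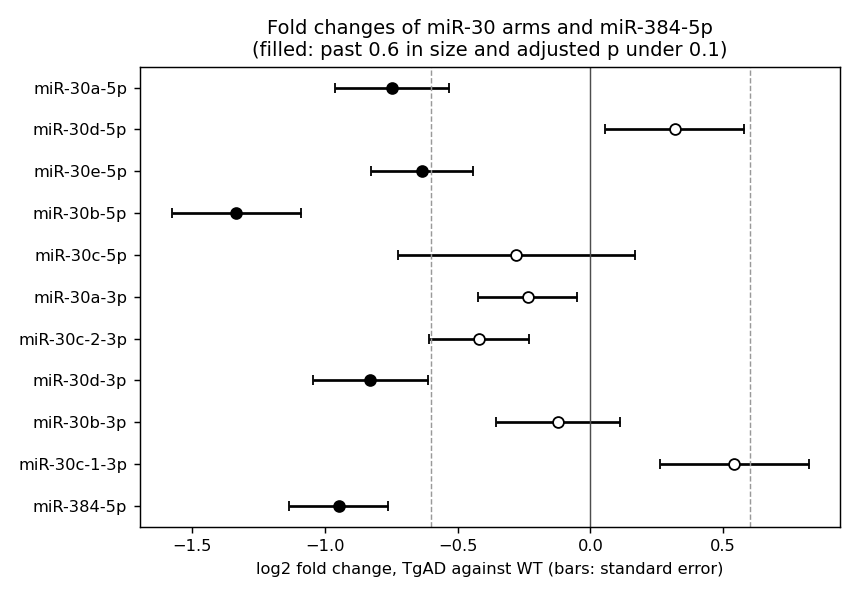
log2 fold change of TgAD against WT for each tested miR-30 arm and miR-384-5p, with bars of 1 standard error, and dashed lines at 0.6 in either direction. Filled points, miR-30a-5p, miR-30e-5p, miR-30b-5p, miR-30d-3p and miR-384-5p, passed the cutoffs without correction for GC content and all lie left of 0. Under that correction miR-30a-5p passed, miR-30e-5p and miR-384-5p did not pass, and miR-30b-5p and miR-30d-3p could not be corrected.

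The order of the guides by counted reads in WT was miR-30a-5p, miR-30d-5p, miR-30e-5p, miR-30b-5p and miR-30c-5p. The ratio of miR-30a-5p to miR-30d-5p was 2.54 and 1.95 in WT and 1.13 and 0.982 in TgAD, so that in TgAD these neighbours were level within their spread. The other neighbours kept their order in all 4 libraries, with miR-30e-5p 1.53 to 3.01 times miR-30b-5p. Among the 3p arms, miR-30a-3p was the most abundant and miR-30c-2-3p came next, and miR-30d-3p and miR-30b-3p lay within a ratio of 0.527 to 1.11 of each other.

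The 5 guides together took 14.7% and 16.0% of all counted reads in WT and 10.2% and 9.31% in TgAD. Their summed level was 129604 and 151178 CPM in WT and 103017 and 111434 in TgAD, a fold of 0.764 on the means with no overlap of the genotypes. The make-up of that sum also differed. miR-30a-5p held 60.7% and 57.7% of it in WT and 47.0% and 45.1% in TgAD, and miR-30b-5p 6.01% and 5.05% in WT and 3.52% and 2.23% in TgAD. miR-30d-5p held 23.9% and 29.6% in WT and 41.8% and 45.9% in TgAD. miR-30e-5p held 9.39% and 7.72% in WT and 7.68% and 6.70% in TgAD. The exact binomial 95% intervals of these shares, which cover counting error only, were narrow, for example 60.6% to 60.9% for miR-30a-5p in WT replicate 1.

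**Figure D3:**
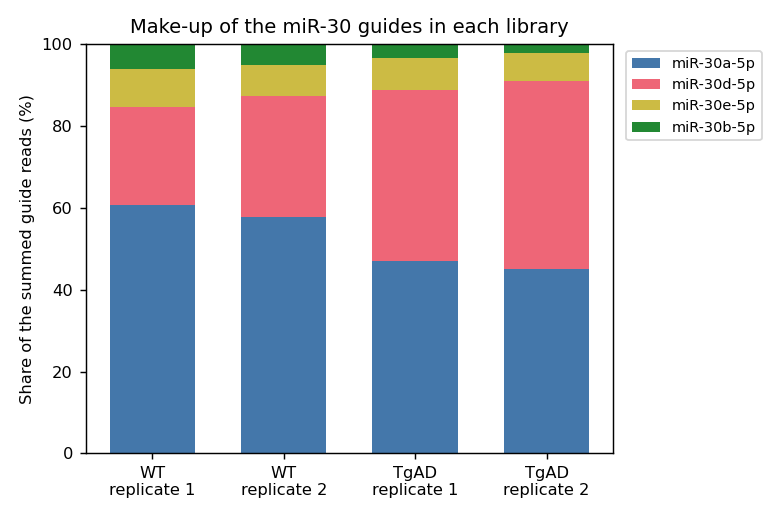
Share of each guide in the summed reads of the 5 miR-30 guides, in percent, as stacked bars with 1 bar per library. The miR-30d-5p part grows from 23.9% and 29.6% in WT to 41.8% and 45.9% in TgAD while the miR-30a-5p part shrinks, and miR-30c-5p, at 9 to 12 reads, is too small to draw.

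Ratios of reads within a library need no scaling between libraries, but a dependence on GC content does not cancel in them where the 2 miRNA differ in GC. Of 20 such ratios computed among arms, cluster mates and guides, 18 did not overlap between the genotypes. Over all 121771 pairs of tested miRNA with a read in every library, 64.2% did not overlap, and the 20 ratios share a few members and are not independent. With 2 libraries against 2, the two-sided exact permutation test cannot give a p below 0.333, which each of these 18 reached (0.370 after Benjamini-Hochberg adjustment over the 20), so no ratio can pass a threshold of 0.05.

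The ratio of guide to passenger moved in opposite directions in the hairpins of 1 cluster. For Mir30b it was 57.8 and 57.0 in WT and 34.6 and 17.5 in TgAD, a log2 difference of -1.22. For Mir30d it was 207 and 321 in WT and 490 and 684 in TgAD, a log2 difference of 1.17. For Mir30a it was 32.4 and 36.4 in WT and 25.5 and 22.9 in TgAD, a log2 difference of -0.51, or -0.17 from the fits corrected for GC content. The ratios of Mir30b and Mir30d could not be corrected, as their arms had no matched sequence. All 3 were without overlap between the genotypes, but so were 68.8% of the 138 hairpins with both arms tested. The median size of this difference over those hairpins was 0.75, and 36 had one at least as large as Mir30b, 39 as Mir30d and 88 as Mir30a. Without TgAD replicate 2, the lower of the pair, the log2 difference of Mir30b was -0.73, and without TgAD replicate 1 it was -1.71.

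Cluster mates did not keep their ratios. miR-30d-5p was 3.97 and 5.85 times miR-30b-5p in WT and 11.8 and 20.6 times in TgAD, a 3.24-fold change of the ratio, or 1.70 on the log2 scale. The log2 difference lay between 1.30 and 2.10 when each library was left out. The passengers of the same pair went the other way, with miR-30d-3p at 1.11 and 1.04 times miR-30b-3p in WT and 0.837 and 0.527 times in TgAD. Neither ratio could be corrected for GC content, as these arms had no matched sequence.

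In the Mir30a and Mir30c-2 pair the differences were smaller. miR-30a-3p was 4.47 and 4.19 times miR-30c-2-3p in WT and 4.89 and 4.94 times in TgAD, a log2 difference of 0.18, and miR-30a-5p was 145 and 153 times miR-30c-2-3p in WT and 125 and 113 times in TgAD, a log2 difference of -0.32 that was 0.0085 after the GC correction. In the Nfyc introns, miR-30e-5p was 427 and 493 times miR-30c-1-3p in WT and 182 and 228 times in TgAD, a log2 difference of -1.17, or -0.44 after the GC correction, where miR-30c-1-3p rests on 67 to 132 reads. The 3p arms of the 2 miR-30c loci moved apart, miR-30c-2-3p being 19.1 and 24.1 times miR-30c-1-3p in WT and 8.95 and 13.6 times in TgAD.

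Among the guides, miR-30a-5p and miR-30e-5p, which lie on different chromosomes, had the smallest difference in ratio before the GC correction. It was 6.47 and 7.47 in WT and 6.13 and 6.73 in TgAD, which overlapped (log2 difference -0.11, two-sided exact permutation p = 0.667, adjusted p = 0.702). After the GC correction this log2 difference was -0.44, and that of miR-30e-5p to miR-30c-5p, which rests on few reads, was smaller at -0.17. Pairs with miR-30b-5p or miR-30d-5p could not be corrected. miR-30d-5p was 2.54 and 3.83 times miR-30e-5p in WT and 5.44 and 6.85 times in TgAD. miR-30a-5p was 10.1 and 11.4 times miR-30b-5p in WT and 13.3 and 20.2 times in TgAD.

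**Figure D4:**
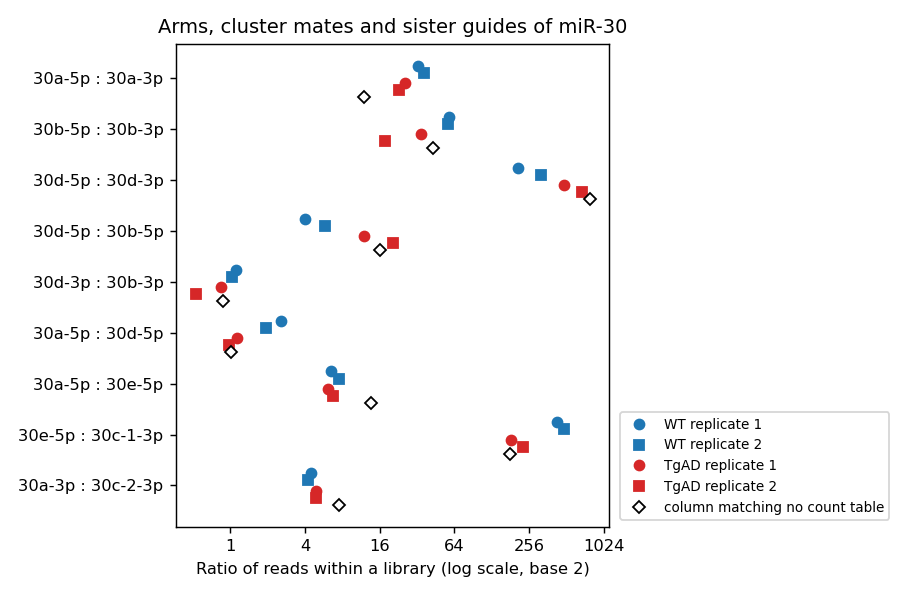
Ratio of reads of the named pairs within a library, on a log axis, with 1 point per library and an open diamond for the column TR_2, which matches no count table. The ratio of miR-30d-5p to miR-30b-5p is 3.97 and 5.85 in WT and 11.8 and 20.6 in TgAD, and that of miR-30a-5p to miR-30e-5p overlaps between the genotypes.

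Fold changes over all miRNA moved with the GC content of the mature sequence, which was known for 441 of the 496 tested miRNA (88.9%). The median log2 fold change was -0.76 over 75 miRNA with less than 40% GC, -0.0058 over 197 with 40 to 50% and 0.25 over 169 with more than 50%. The members with a sequence lay between 40.9% GC for miR-30e-5p and 54.5% for miR-30c-1-3p, the member with the highest log2 fold change among them. Each library was therefore corrected for GC content in an alternative fit, by a local regression of its deviations on GC. The calls of miR-30e-5p and of miR-384-5p, at 34.8% GC, were lost there, as given above. The log2 fold change of miR-30a-5p was -0.64 (edgeR adjusted p = 0.0929) and still passed. miR-30c-2-3p, at 50% GC, reached -0.64 (adjusted p = 0.0499) and passed there. miR-30b-5p, miR-30d-5p and miR-30d-3p could not be corrected.

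**Figure D5:**
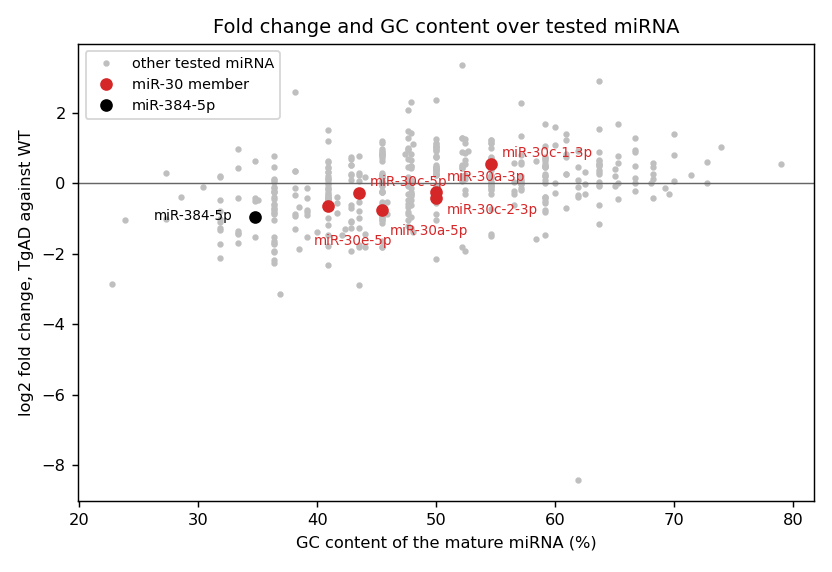
log2 fold change of TgAD against WT on the y axis and GC content of the mature miRNA, in percent, on the x axis, for the 441 tested miRNA with a sequence. Members in red run from miR-30e-5p at 40.9% GC and -0.63 to miR-30c-1-3p at 54.5% GC and 0.54, and miR-384-5p, in black, lies at 34.8% GC and -0.95.

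Markers of cell types were read beside these values. Of 8 neuronal miRNA, 5 lay over the floor in every library, but miR-9-5p and miR-9-3p were at 0 and miR-124-3p had 1 to 7 reads, so the label could not be checked on these defining markers. Both miR-9 arms are annotated at 3 loci and overlap miRNA of the other strand, as miR-30e-3p does. The summed neuronal level was 25122 and 39047 CPM in WT and 87736 and 63158 in TgAD. Most of this sum was miR-128-3p, which rose past the cutoffs, and the sum without it was 6816 and 6007 CPM in WT and 3678 and 3436 in TgAD, with miR-137-3p lower past the cutoffs. The 3 oligodendrocyte markers were at 0, of which miR-219a-5p and miR-338-3p have such an overlap, as do the myeloid miR-142a-3p and the vessel miR-126a-3p, both also at 0. These counts of 0 do not show that a cell type was absent. The 4 miRNA listed for astrocytes and other glia, miR-21a-5p, miR-146a-5p, miR-143-3p and miR-145a-5p, were all over the floor, and none passed. Their sum was 18940 and 24017 CPM in WT and 16767 and 15522 in TgAD. Most of it was miR-21a-5p, and the sum without miR-21a-5p was 1802 and 1436 CPM in WT and 1647 and 1801 in TgAD. Whether these miRNA come from glia in the cultures was not tested. The 4 myeloid markers, of which 2 were over the floor in every library and 1 was at 0, summed to 25.4 to 38.7 CPM in WT and 36.3 to 60.5 in TgAD. Of 5 blood and vessel markers 3 were at 0, and the list summed to 1310 and 1331 CPM in WT and 957 and 646 in TgAD, with miR-451a lower past the cutoffs. The part of these levels in the miR-30 values was not tested.

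The tested miRNA outside the family with the most similar pattern to each guide were found by the root mean square difference of centred log2 CPM over the 4 libraries. They were miR-181b-1-3p (0.065) and miR-488-3p (0.087) for miR-30a-5p, and miR-544-5p (0.027) and miR-670-3p (0.086) for miR-30b-5p. For miR-30d-5p they were miR-99b-5p (0.091) and miR-15b-5p (0.092), and for miR-30e-5p miR-152-3p (0.024) and let-7d-5p (0.041). For miR-30c-5p, at its low counts, they were miR-350-3p (0.022) and miR-700-5p (0.049). With 4 libraries, many miRNA can lie near any pattern.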

How the data were processed

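Small RNA of 2 WT and 2 TgAD cultures was sequenced with a TruSeq small RNA kit on an Illumina HiSeq. The authors trimmed adapters, mapped the reads to GRCm38 (GRCm38.p6 in their processing notes) with Bowtie2 without mismatch, counted them on mature miRNA of miRBase with HTSeq and deposited 1 table of raw counts per library. They also deposited a normalized signal, counts divided by a size factor per column with DESeq2. All of its values (100%) were whole multiples of 1 read within 0.01, so reads were recovered from it for 1 alternative, in which the count test called 0 of 480 miRNA. Genotypes came from the labels, and 1 transgene of the TgAD line is not reported here.

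Counts were tested with edgeR 4.0.16 in R 4.3.3 (TMM, filterByExpr, quasi-likelihood test, genotype as the only factor), with Benjamini-Hochberg adjustment of the p-values over the 496 tested miRNA. The procedure was tested on simulated data. Ratios were computed on raw reads and compared by exact permutation tests with scipy 1.17.1. Intervals, and the floor of 3 reads, cover counting error only, since the reads carry no molecular identifiers.

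Alternatives were RLE size factors, total counts as library size, no filter, at least 10 reads in every library, DESeq2 1.42.0, the robust option, the replicate number as a block, a GC correction (local regression of the deviation in log2 CPM on GC, span 0.75, prior count 2), both together, the GC correction for ratios (added after the data were seen, as differences of fitted log2 fold changes), a pseudocount of 1 read for ratios and shares, leaving out each library, and the recovered reads. Named miRNA were, by rule, all members, other miR-30 arms, listed miRNA with a member's seed and the 2 miRNA nearest to each guide. miR-99a-5p and markers of cell types were named outside it. The members, lists and markers were chosen with earlier results of these data known.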

Additional observations from a re-analysis of the deposited data

Results flagged for a closer look

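One value stood out in data that the comparisons do not use. In the column TR_2 of the normalized table, which is named like a TgAD library and matches no count table, the ratio of miR-30d-5p to miR-30b-5p was 16.0, above the 3.97 and 5.85 of the WT libraries and between the 11.8 and 20.6 of the TgAD libraries. Its recovered reads were 69922 for miR-30d-5p and 4370 for miR-30b-5p. The ratio of miR-30a-5p to miR-30d-5p there was 1.02, near the TgAD libraries, while the guide to passenger ratio of Mir30a was 11.8, below all 4 libraries, and that of Mir30b was 42.8, between the genotypes. The ratio of miR-30a-5p to miR-30e-5p was 13.7, above all 4 libraries. Which culture this column holds was not tested. With 2 libraries per genotype, no group was large enough to be searched for a single outlying library.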

How the results depend on the processing

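The count of 4 members past the cutoffs was 4 under RLE size factors, no filter, at least 10 reads in every library, DESeq2, the robust option and the replicate block, and 5 with total counts as library size. Leaving out 1 library gave fewer, as it did over all tested miRNA. The sources used here do not say whether libraries with the same replicate number share a litter or day. The correlation of same-numbered deviations was 0.22 over 496 tested miRNA, from only 2 pairs of libraries, which cannot settle this. Under the replicate block 188 miRNA were called instead of 164. With the replicate block and the GC correction together, miR-30a-5p was lost (adjusted p = 0.185). With the GC correction 4 members passed, miR-30c-2-3p in place of miR-30e-5p, and 3 with the replicate block as well, but 3 of the tested members entered these fits uncorrected. At the stringent cutoffs, 22 miRNA passed in edgeR, 0 with RLE size factors in edgeR (181 at an unadjusted p under 0.05), 68 in DESeq2 and 102 under the replicate block, so that count depends on the setting.

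With the recovered reads and columns taken by name, 0 members and 0 of 480 miRNA passed in edgeR, 54 at an unadjusted p under 0.05 and 0 members among them. 1 of the columns named WT there holds the reads of the TgAD replicate 1 count table. Log2 fold changes reversed to 0.64 for miR-30a-3p, -0.38 for miR-30c-1-3p and 0.18 for miR-30c-2-3p. Reversed log2 ratio differences were -1.50 (miR-30c-5p to miR-30c-2-3p), 0.57 (miR-30c-2-3p to miR-30c-1-3p), 0.61 (miR-30a-5p to miR-30e-5p), and 1.07, 0.42 and 0.46 (miR-30a-5p, miR-30b-5p and miR-30e-5p to miR-30c-5p). The ratio of miR-30c-5p to miR-30c-2-3p also ran from -0.089 to 0.40 over single left-out libraries and was -0.11 within replicate number 2 (replicate block). After the GC correction, added after seeing the data for ratios, the difference of miR-30a-5p to miR-30c-2-3p was 0.0085. The cause was not tested. Depth limits miR-30c-5p, miR-30f and miR-30c-1-3p.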
